A study of Mus musculus with 5 samples.

Results

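Some gene promoters are listed with far more chromosomal contacts than the rest, and 503 such promoters of the mouse fetal gonad are described here. The table came from capture Hi-C of supporting cells sorted from E13.5 embryos (days of development): 3 libraries of Sox9IRES-GFP Sertoli cells, the supporting cells of the testis, and 2 libraries of Enh8-mCherry pre-granulosa cells, those of the ovary, each made from about 100000 sorted cells. The Sertoli cells were collected by a GFP reporter at Sox9 and the pre-granulosa cells by an mCherry reporter named Enh8. The labels state no further allele or treatment, and contact data hold no expression value against which the sort could be checked. Each row of the table pairs a bait, a bin of about 5 kb named by the transcripts that start in it, with another bin, and gives 1 CHiCAGO score for Sertoli cells and 1 for pre-granulosa cells. CHiCAGO compares the ligation products between a bait and another bin with the number expected from their distance, from biases of the bait and of the other bin, and from technical noise, and a score of 5 or more is called a contact here. All libraries of a cell type stand behind 1 score, so no spread between libraries and no test of a difference between the cell types can be had. The depth of the libraries is unknown. Ranges in brackets are 95% intervals that cover counting error over contacts only, and contacts of 1 promoter are not independent of each other.

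The promoters were selected on the number of rows alone: a bait on chromosomes 1 to 9 with 15 or more rows to the same chromosome, here called a hub. Of 11063 baits with such a row, 503 (4.55%) were hubs, and they held 10542 of the 50644 rows (20.8%). A row is listed where at least 1 cell type reached a score of 5, so a hub may owe its rows to either cell type or to both. Hubs had 15 to 57 listed contacts with a median of 19, against a median of 3 over all baits and 1 contact for 2781 baits. At the edge of the selection lay 70 bins of 15 contacts and 89 bins of 14. The 15-contact bins had 83.7% of their contacts called in Sertoli cells, 54.0% in pre-granulosa cells and 38.3% with a promoter bin as partner, and the 14-contact bins 81.5%, 57.5% and 39.0%.

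A promoter is the stretch around a transcription start where the transcription machinery assembles. It can lie in spatial contact with enhancers, which are regulatory elements outside the promoter, with other promoters, and with sites bound by the architectural protein CTCF. Promoters that share a neighbourhood of active genes often contact each other, and capture Hi-C lists contacts without saying which of them act on a gene. Sertoli and pre-granulosa cells arise from the same progenitors of the gonad, and the choice between them sets the sex of the organ.

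The promoters of 6 hubs are shown because the results below turn on them: Med19 has the most contacts, Syncrip, tied with Prdx1, the largest share called in both cell types, Gemin7 and Nkpd1, which are neighbours, have among the largest excess of Sertoli calls, and Ing4 and Cav1 among the largest excess of pre-granulosa calls. The sequences are from RefSeq on GRCm38.p6, the build the deposited coordinates use, and run 5′ to 3′ from 250 bases before the start to 50 after it. Capitals mark the GC box GGGCGG, the letters bound by Sp1-family factors, and the CCAAT box CCAAT, the letters bound by NF-Y, on either strand.
Med19 (chr2:84678152-84678451, plus strand): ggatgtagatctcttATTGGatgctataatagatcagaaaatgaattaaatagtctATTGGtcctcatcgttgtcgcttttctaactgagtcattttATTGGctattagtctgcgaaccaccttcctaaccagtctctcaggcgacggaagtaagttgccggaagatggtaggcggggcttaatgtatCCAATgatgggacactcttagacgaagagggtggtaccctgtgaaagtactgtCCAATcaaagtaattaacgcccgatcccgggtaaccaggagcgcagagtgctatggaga
Syncrip (chr9:88482348-88482647, minus strand): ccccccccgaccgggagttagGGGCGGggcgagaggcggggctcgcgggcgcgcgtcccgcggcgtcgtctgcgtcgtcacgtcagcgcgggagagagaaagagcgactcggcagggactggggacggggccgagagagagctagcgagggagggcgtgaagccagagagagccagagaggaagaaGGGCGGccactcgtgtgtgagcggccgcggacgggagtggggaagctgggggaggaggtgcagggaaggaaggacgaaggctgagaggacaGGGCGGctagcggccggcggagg
Gemin7 (chr7:19573294-19573593, minus strand): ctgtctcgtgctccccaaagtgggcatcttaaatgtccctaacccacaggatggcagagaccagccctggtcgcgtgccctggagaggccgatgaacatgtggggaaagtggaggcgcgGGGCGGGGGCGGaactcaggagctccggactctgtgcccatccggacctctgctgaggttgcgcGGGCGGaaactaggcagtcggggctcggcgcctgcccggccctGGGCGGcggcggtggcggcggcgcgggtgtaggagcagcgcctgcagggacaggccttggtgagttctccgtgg
Nkpd1 (chr7:19518481-19518780, plus strand): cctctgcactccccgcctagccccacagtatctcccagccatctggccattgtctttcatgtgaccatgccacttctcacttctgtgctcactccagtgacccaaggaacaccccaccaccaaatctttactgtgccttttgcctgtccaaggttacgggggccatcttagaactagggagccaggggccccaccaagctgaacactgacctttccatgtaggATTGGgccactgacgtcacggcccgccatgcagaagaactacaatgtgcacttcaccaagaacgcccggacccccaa
Ing4 (chr6:125039598-125039897, plus strand): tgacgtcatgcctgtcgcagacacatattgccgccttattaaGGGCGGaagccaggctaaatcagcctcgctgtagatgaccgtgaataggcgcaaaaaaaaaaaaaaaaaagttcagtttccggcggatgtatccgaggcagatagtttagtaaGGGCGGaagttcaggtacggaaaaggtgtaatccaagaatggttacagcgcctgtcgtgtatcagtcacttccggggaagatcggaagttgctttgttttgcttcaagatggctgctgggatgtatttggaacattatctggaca
Cav1 (chr6:17306085-17306384, plus strand): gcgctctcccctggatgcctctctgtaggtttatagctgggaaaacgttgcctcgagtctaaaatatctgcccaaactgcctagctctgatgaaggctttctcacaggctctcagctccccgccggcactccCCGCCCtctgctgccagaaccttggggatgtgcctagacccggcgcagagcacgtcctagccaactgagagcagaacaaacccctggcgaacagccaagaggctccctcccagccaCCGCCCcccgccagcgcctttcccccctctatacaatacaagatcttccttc
A RefSeq promoter inside the bin was found for 319 hubs, which gave 471 promoters, some of them overlapping starts of 1 gene. The letters GGGCGG stood on either strand in 45.0% of them (40.6–49.5), in 48.3% of 7282 promoters of other baits and in 35.9% of all 18612 RefSeq promoters of the same length on these chromosomes. CCAAT stood in 35.2%, 37.8% and 37.5% of the 3 groups, and the TATA box TATAAA in 8.28% (6.12–11.1), 12.1% and 13.7%. The ETS letters CCGGAAG stood in 12.1%, 12.5% and 8.83%. CGCATGCG, read by NRF1, stood in 2.55%, 2.65% and 1.77%, and the CRE letters TGACGTCA in 2.97%, 2.33% and 1.78%. AGNGGCAG and GGNGGCAG, overlapping parts of the CTCF core, stood in 10.6% and 13.6% of hub promoters, in 10.9% and 14.2% of other bait promoters and in 10.4% and 12.8% of all. Median GC content was 57.3% in hub promoters, 57% in other bait promoters and 53% in all. Hub promoters and other bait promoters thus had overlapping intervals for these motifs other than the TATA box, for which the hub share was lower.

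Hub contacts were called mostly in Sertoli cells. Of the 10542 contacts, 9152 (86.8%, 86.2–87.4) were called in Sertoli cells, where 78.7% of the contacts of all baits were, and 5849 (55.5%, 54.5–56.4) in pre-granulosa cells, against 55.9% for all baits. Both cell types called 4459 (42.3%, 41.4–43.2), against 34.6% for all baits. Sertoli cells alone called 4693 (44.5%) and pre-granulosa cells alone 1390 (13.2%), the latter 21.3% for all baits. The call ratio, which is the number of Sertoli calls divided by the number of pre-granulosa calls, was 1.56 (1.51–1.62) in hubs, 1.37 in baits of under 15 contacts and 1.41 in all. Since every hub was chosen for many rows and Sertoli cells supplied most rows of the table, these shares describe the hubs and test nothing.

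**Figure D1:**
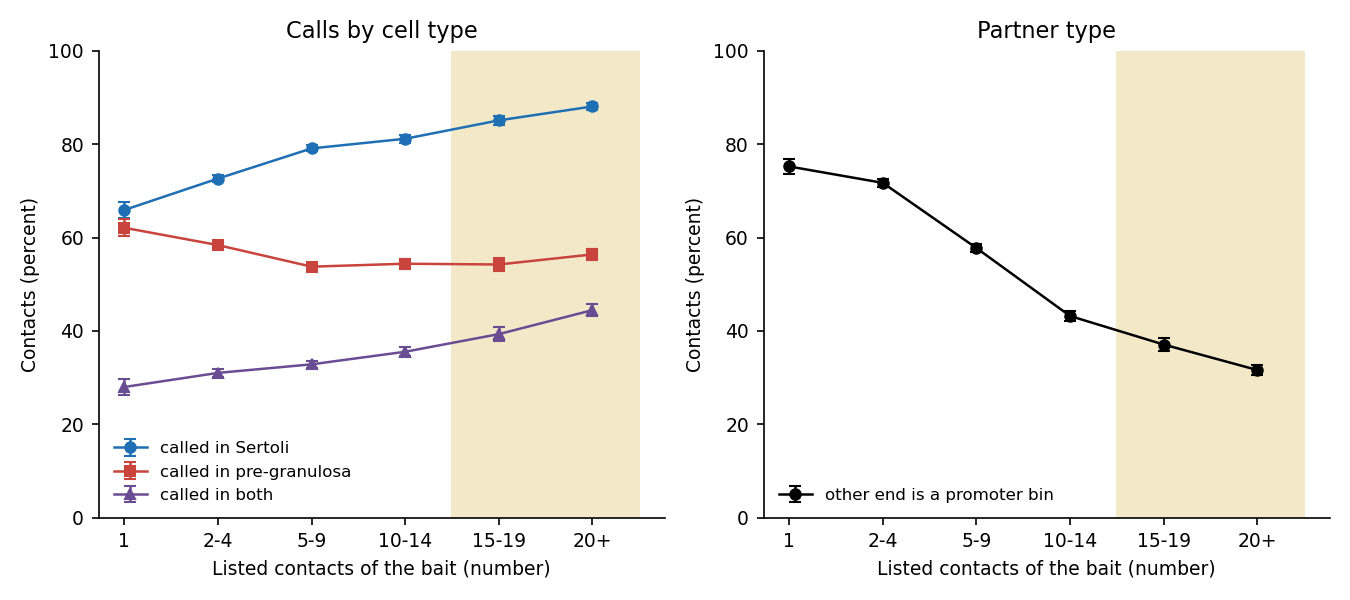
Share of listed contacts (percent, y axis) by the number of contacts of the bait (x axis), with 95% Wilson intervals; the shaded classes are the hubs. The Sertoli share climbs from 65.9% to 88.1%, the pre-granulosa share stays between 53.8% and 62.1%, the share called in both climbs from 28.0% to 44.5%, and the share with a promoter bin as partner falls from 75.2% to 31.6%.

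The same shares shifted step by step with the number of contacts. In baits of 1 contact, Sertoli cells called 65.9% and pre-granulosa cells 62.1%, a call ratio of 1.06. Baits of 5 to 9 contacts had 79.1% and 53.8%, a ratio of 1.47, and hubs of 20 or more had 88.1% and 56.4%, a ratio of 1.56. The pre-granulosa share stayed between 53.8% and 62.1% over all steps, so that calls of both cell types rose in number with the contacts. The steps are cut by the number of rows, which also chose the hubs, and are a description.

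Score levels near the threshold bear on the contacts called in 1 cell type. Of the hub contacts called only in Sertoli cells, 43.7% had a pre-granulosa score of 3 or more and 14.98% one under 1, against 39.8% and 18.1% over all baits. Of those called only in pre-granulosa cells, 56.8% had a Sertoli score of 3 or more and 8.85% one under 1, against 48.4% and 12.3%. A bin touching the contacted bin on either side was called in pre-granulosa cells for 41.6% of the Sertoli-only contacts, and in Sertoli cells for 51.4% of the pre-granulosa-only contacts. Over all baits these were 22.8% and 24.1%, but a bait with few contacts has few neighbours that could be called. Scores just under the threshold in the other cell type were thus common both in hubs and over all baits.

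Hub by hub, 436 of 503 (86.7%) had more Sertoli calls, 50 (9.94%) had more pre-granulosa calls and 17 had equal numbers; over all baits, 53.6% had more Sertoli and 26.4% more pre-granulosa calls. A bait with many contacts can show small differences that a bait with 1 contact cannot, so the shares are not on the same footing. With the Sertoli threshold raised to 6.05, all baits together have as many Sertoli as pre-granulosa calls. At this setting 332 hubs had more Sertoli and 130 more pre-granulosa calls, against 3725 and 4468 of all baits. The ratio over hub contacts was 1.22. The same 503 hubs were kept and not chosen again, so the selection on rows at a score of 5 still enters this contrast. Sertoli minus pre-granulosa calls ran from −10 to 29 with a median of 7, and 86 hubs differed by at most 2. Sertoli calls were at least 3 times the pre-granulosa calls in 54 hubs, and pre-granulosa calls at least 3 times the Sertoli calls in 2, Cav1 and Cep41. Gmfg, which encodes a regulator of actin branching, was the only hub without a call in 1 cell type: its 21 contacts were all Sertoli calls, pre-granulosa cells called 0, and its highest pre-granulosa score was 4.88. Gmfg was picked out after its values were seen. Counted by themselves, Sertoli calls reached 15 in 357 hubs and pre-granulosa calls in 120; 99 hubs reached 15 in each cell type, and 125 in neither.

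**Figure D2:**
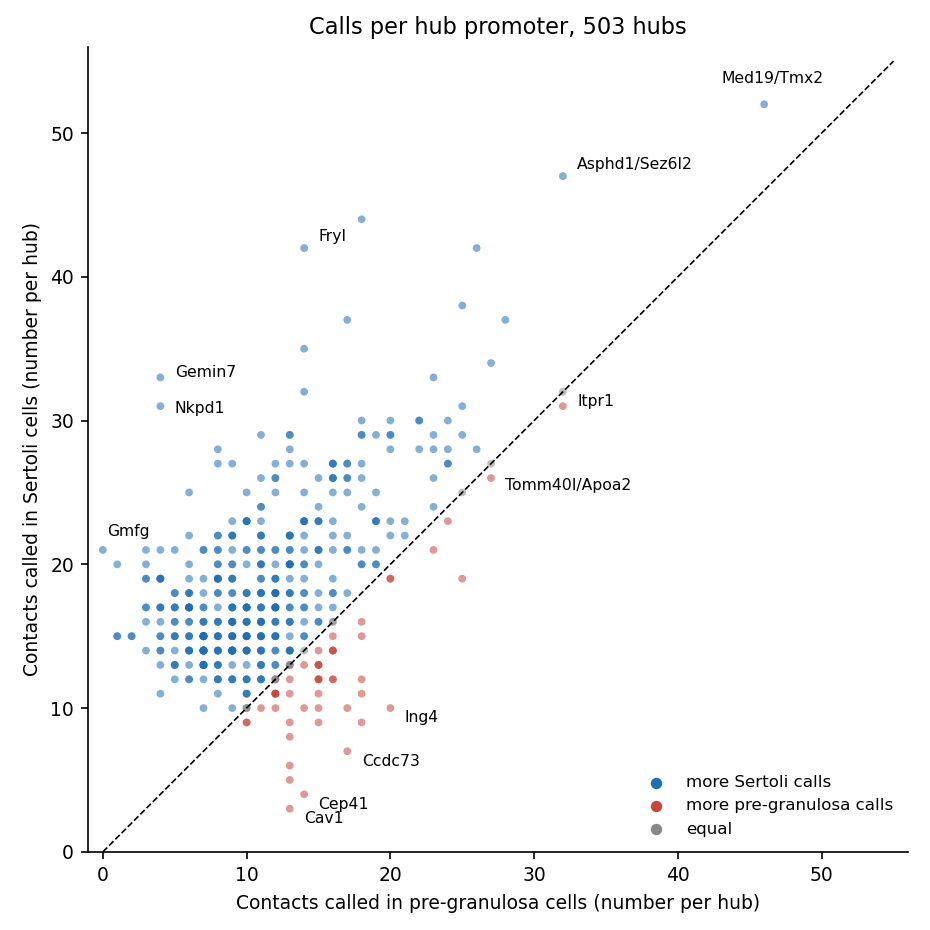
Each of the 503 hubs as a point, with its contacts called in pre-granulosa cells on the x axis and in Sertoli cells on the y axis (numbers of contacts); the dashed line marks equal numbers. Most points lie above the line (436 hubs), 50 lie below it, and Med19/Tmx2 stands at the upper right with 52 Sertoli and 46 pre-granulosa calls.

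The hub with the most contacts was the bin chr2:84677557-84682821, where transcripts of Gm28635, of Med19, a subunit of the Mediator complex that links transcription factors to RNA polymerase, and of Tmx2, a thioredoxin-related membrane protein, start. It had 57 contacts, 52 called in Sertoli cells, 46 in pre-granulosa cells and 41 in both. Its promoter shown above holds 5 CCAAT boxes and no GC box, and the Tmx2 promoter covers most of the same bases on the other strand. The strongest contact in Sertoli cells lay 61.8 kb to the left, with scores of 30.7 in Sertoli and 18.2 in pre-granulosa cells. The strongest in pre-granulosa cells was the promoter bin of Ctnnd1, the gene of p120 catenin, 28.1 kb away, with 16.8 and 22.0. Of its partners 12 were promoter bins and 45 were not, and its contacts formed 11 separate blocks, the longest of 14 touching bins. High scores of the 2 cell types fell on the same stretches.

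The other leading hubs ranged from even numbers of calls to a wide Sertoli excess. Asphd1/Sez6l2 (chr7:126949229-126954619; Sez6l2 encodes a neuronal membrane protein) had 49 contacts, 47 called in Sertoli and 32 in pre-granulosa cells, and 22 promoter partners, the most of any hub. Its strongest contact was the promoter bin of Ino80e, a subunit of the INO80 chromatin remodeller, 91.1 kb away, with scores of 30.7 in Sertoli and 13.0 in pre-granulosa cells. The bin shared by Dhx30, an RNA helicase gene, and Smarcc1, the gene of a core subunit of the SWI/SNF remodeller, had 48 contacts, of which Sertoli cells called 44 and pre-granulosa cells 18. Fryl had 44 contacts, with 42 and 14 calls, and Dst, the gene of the cytoskeletal linker dystonin, 40 contacts, with 37 and 17. Itpr1, which encodes an inositol trisphosphate receptor of the endoplasmic reticulum, had 46 contacts and 32 calls in each cell type, yet 18 in both. Just 1 Itpr1 partner was a promoter bin, and 22 of its contacts lay inside Itpr1 itself. Its highest scores, 28.2 in Sertoli and 19.04 in pre-granulosa cells, fell on different bins 296.3 and 312.1 kb away, outside coding genes. With equal numbers of calls over all baits, Itpr1 had 26 Sertoli and 32 pre-granulosa calls. Syt8/Tnni2 had 39 contacts with 31 and 32 calls, Hcst/Nfkbid 39 with 38 and 25, and Bckdk 38 with 34 and 27. At equal numbers of calls over all baits, these became 22 and 32, 30 and 25, and 32 and 27.

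**Figure D3:**
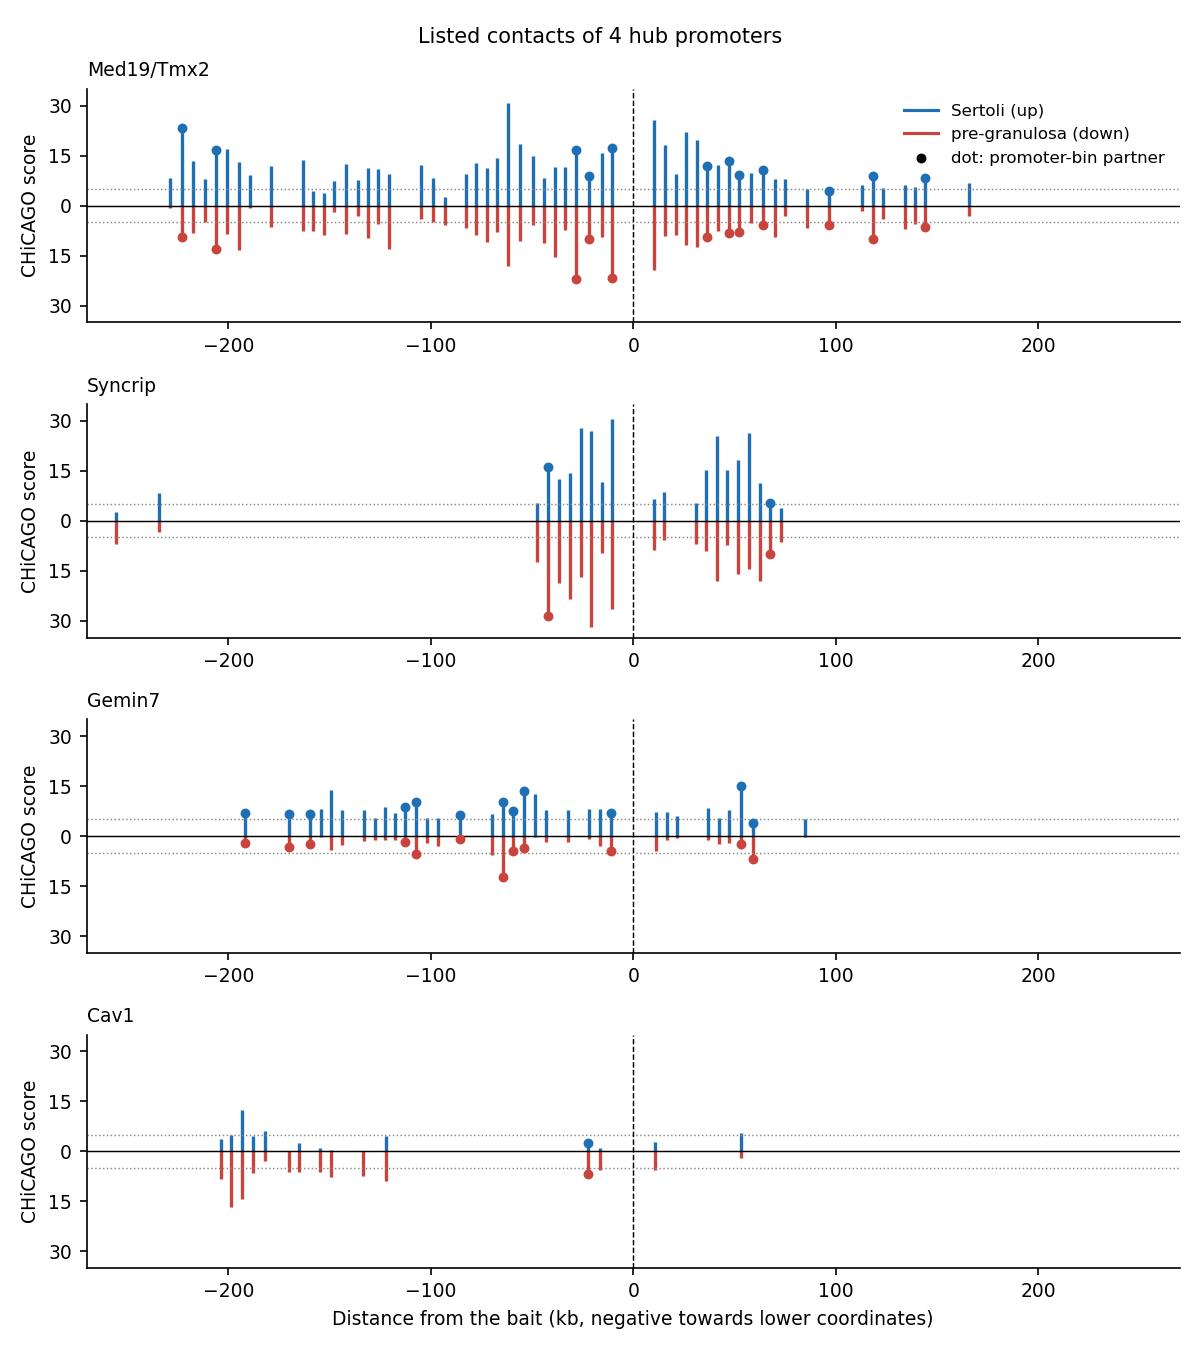
CHiCAGO scores (y axis) of every listed contact of 4 hubs against distance from the bait (kb, x axis), Sertoli scores drawn up and pre-granulosa scores drawn down; dots mark promoter-bin partners and dotted lines the threshold of 5. Med19/Tmx2 and Syncrip carry high scores in both directions, Gemin7 has 33 Sertoli and 4 pre-granulosa calls, and Cav1 has 3 and 13.

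The excess of Sertoli calls was largest at Gemin7, which encodes a subunit of the SMN complex that assembles splicing ribonucleoproteins. Its bin (chr7:19569727-19574799) had 34 contacts, of which Sertoli cells called 33, pre-granulosa cells 4 and both cell types 3. Fryl followed with a difference of 28, then Nkpd1 with 27, Dhx30/Smarcc1 with 26, and Npdc1 and Gmfg with 21 each. Nkpd1 lies 53.8 kb from Gemin7, and Sertoli cells called all 31 of its contacts, pre-granulosa cells 4. The contact from Nkpd1 to Gemin7 scored 15.2 in Sertoli and 3.99 in pre-granulosa cells. At Gemin7 the strongest Sertoli contact was a promoter bin of Relb, an NF-kB subunit gene, 53.2 kb away, with 14.9 against 2.49. The strongest pre-granulosa contact was the Bloc1s3/Trappc6a promoter bin, with 10.2 in Sertoli and 12.4 in pre-granulosa cells. With equal numbers of calls over all baits, Gemin7 still had 28 Sertoli calls against 4 and Nkpd1 24 against 4. Of the 30 Sertoli-only contacts of Gemin7, 8 had a pre-granulosa score of 3 or more, and of the 27 of Nkpd1, 15 did. The median pre-granulosa score over all listed bins was 2.17 at Gemin7 and 3.29 at Nkpd1, so more of the Nkpd1 contacts lay just under the threshold. Both promoters are shown above; that of Gemin7 holds 4 GC boxes and that of Nkpd1 1 CCAAT box.

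Pre-granulosa calls led by 10 at Ing4, Cav1, Cep41 and Ccdc73 and by 9 at Atp6v1f. Ing4, the gene of a subunit of a histone acetyltransferase complex, had 22 contacts, of which Sertoli cells called 10 and pre-granulosa cells 20. Its highest pre-granulosa score, 12.6, was at a promoter bin of the zinc finger gene Zfp384, where the Sertoli score was 10.8. Cav1, which encodes caveolin 1, the coat protein of caveolae, had 15 contacts at a median distance of 154.6 kb, 3 called in Sertoli cells, 13 in pre-granulosa cells and 1 in both. The contact of Cav1 called in both lay 193.2 kb to the left, with 12.4 in Sertoli and 14.5 in pre-granulosa cells, and the bin beside it scored 4.95 and 16.8. Of the 12 Cav1 contacts called only in pre-granulosa cells, 4 had a Sertoli score of 3 or more. Over all 15 contacts the Sertoli scores had a median of 2.76 and ran from 0 to 12.4, and the pre-granulosa scores a median of 6.69. Cep41, the gene of a centrosomal protein, had 4 Sertoli and 14 pre-granulosa calls, and Atp6v1f, a subunit gene of the vacuolar proton pump, 9 and 18. Ccdc73 (chr2:104986973-104992323), a neighbour of Wt1, had 7 and 17, and its strongest contact, inside Ccdc73 10.5 kb away, scored 17.0 in Sertoli and 23.5 in pre-granulosa cells. None of the listed Ccdc73 contacts ended in a bin named for Wt1, and the Wt1 bins themselves, with 4 and 2 contacts, were no hubs. Of these 5 hubs, 4 lie on chromosome 6, where hubs had the lowest ratio of calls, 1.27, and where the ratio over all baits was also the lowest, 1.23. With equal numbers of calls over all baits the ratio of hub calls on chromosome 6 was 0.979, the only one under 1.

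The largest shares called in both cell types were at Syncrip, Prdx1, Tomm40l/Apoa2, Lmtk3 and Lgals7. Syncrip, which encodes the RNA-binding protein hnRNP Q, had 21 contacts, 19 called in Sertoli cells, 20 in pre-granulosa cells and 18 in both (85.7%). Its strongest contacts lay inside the gene: 30.4 in Sertoli and 26.6 in pre-granulosa cells at 10.4 kb, and 26.8 and 31.8 at 20.7 kb. Prdx1, the gene of an antioxidant peroxiredoxin, had the same counts, and its contact with Akr1a1, 36.5 kb away, scored 27.4 and 29.6. Tomm40l/Apoa2 had 29 contacts, 24 of them called in both, and reached 42.5 in Sertoli and 29.2 in pre-granulosa cells at a Cfap126 bin 108.0 kb away. Lmtk3 had 14 of 17 contacts called in both, and Lgals7, a galectin gene, 17 of 21. Scores at these hubs stood well above the threshold in both cell types over most of their contacts.

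Contacts of hubs reached farther than those of other baits. Their median distance was 60.6 kb (59.5–63.1), against 48.3 kb over all baits, and no row of the table was nearer than 10 kb. The median rose with the number of contacts, from 37.1 kb at 1 contact to 49.3 kb at 10 to 14. It was 53.1 kb at 14 contacts, just outside the selection, 54.2 kb at 15 to 19 and 66.1 kb at 20 or more. The share under 20 kb was 14.7% in hubs and 23.0% in all baits, and the share from 100 to 200 kb 23.0% and 18.0%. At the far end this turned: 115 hub contacts (1.09%) lay at 300 kb or more, against 2.12% over all baits, and the farthest hub contact was 583.6 kb away. Contacts called in both cell types were nearer, with a median of 43.4 kb, than those called only in Sertoli (74.8 kb) or only in pre-granulosa cells (72.2 kb). Over all baits they were nearer too, with 31.9 kb against 60.7 and 51.1 kb. The call ratio in hubs was 1.21 under 20 kb, 1.47 from 20 to 50 kb, 1.70 from 50 to 100 kb, 1.87 from 100 to 200 kb and 1.69 beyond. In baits of under 15 contacts it was 1.12, 1.34, 1.55, 1.64 and 1.55 over the same steps.

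**Figure D4:**
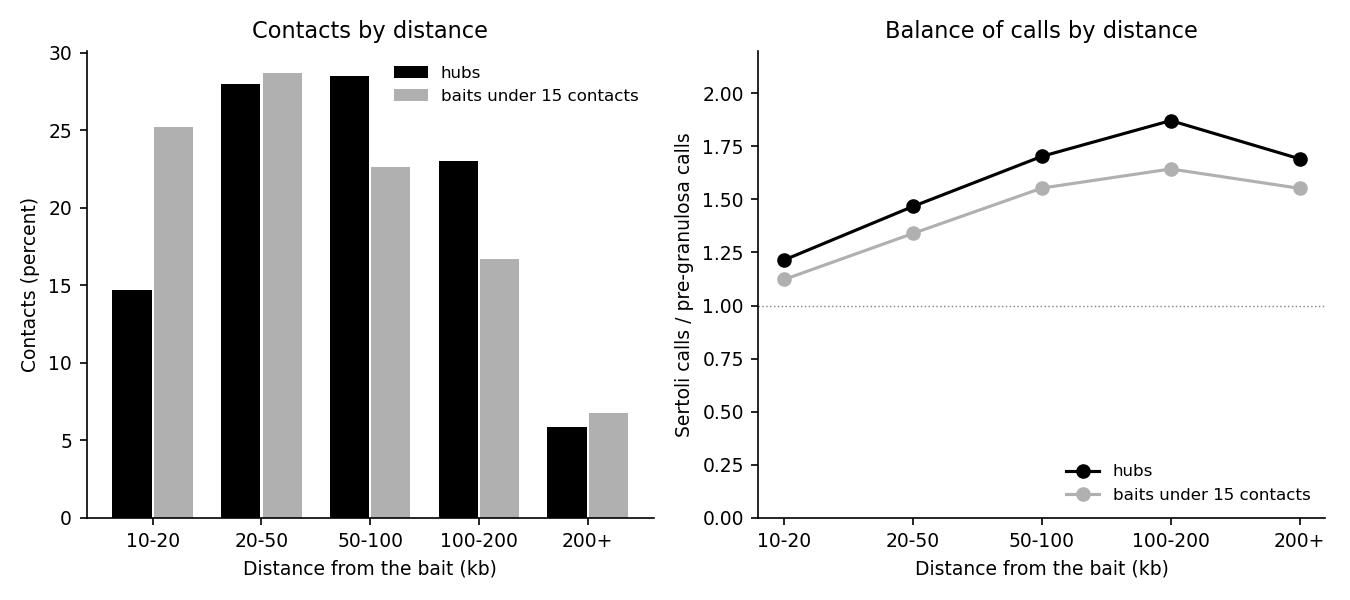
Left, the share of listed contacts (percent, y axis) by distance from the bait (kb, x axis) for hubs (black) and baits of under 15 contacts (grey). Right, the number of Sertoli calls over that of pre-granulosa calls in the same steps; in hubs it runs from 1.21 under 20 kb to 1.87 at 100 to 200 kb, above the other baits in every step.

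The farthest hubs were Cdk15, Taf5l/Urb2, Lmntd1, Blcap and Slc45a1. Cdk15, a gene of a cyclin-dependent kinase family member, had 20 contacts, all on the right of the bait, at a median of 308.9 kb, with 16 Sertoli and 12 pre-granulosa calls. The strongest was a promoter bin of Gm973 at 377.4 kb, with 13.6 and 5.56. Taf5l/Urb2, where Taf5l encodes a subunit of a histone acetyltransferase coactivator complex, had a median of 285.5 kb and 21 Sertoli against 5 pre-granulosa calls. Its strongest contact, at 338.5 kb, scored 25.7 in Sertoli and 4.80 in pre-granulosa cells. Lmntd1 had a median of 276.8 kb with 21 and 13 calls, Blcap 234.0 kb with 12 and 12, and Slc45a1 221.4 kb with 10 and 9. At Slc45a1 the strongest contact in Sertoli cells was the promoter bin of Park7, 255.5 kb away, with 23.1 and 8.49.

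Taken bin by bin, hub partners were mostly not promoters. Of the 10542 contacts, 3579 (33.9%, 33.1–34.9) ended in a bin named for a transcript start and 6963 did not; over all baits the promoter share was 54.8%. With touching bins merged into blocks, a block counting as a promoter partner where any of its bins is one, the promoter share was 52.7% of 4378 hub blocks and 66.6% over all baits, so the majority turned while hubs stayed below all baits. The share by bin fell with the number of contacts, from 75.2% in baits of 1 contact to 31.6% in hubs of 20 or more. Of the promoter bins within 200 kb, hubs listed 3381 of 7711 (43.8%) and baits of under 15 contacts 22502 of 109468 (20.6%). Hubs were chosen for many rows, so a higher share of listed bins follows from the selection. Promoter partners of hubs were called in both cell types in 51.6% of cases with a ratio of 1.34, and non-promoter partners in 37.5% with a ratio of 1.71. The same gap stood over all baits, with 41.3% and 1.27 against 26.4% and 1.62. Another hub was the partner in 855 rows, and 296 hubs had at least 1 such row. These were 8.11% of hub rows, against 9.19% of the rows of all baits that ended in a hub. Of promoter partners alone they were 23.9% in hubs, 16.8% over all baits and 24.8% in baits of 10 to 14 contacts.

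Partners varied widely between hubs. The share of non-promoter partners ran from 0 to 100% with a median of 66.7%, and 108 hubs had more promoter than non-promoter partners. All 15 partners of Ccdc153 were promoter bins. At the other end, 9 hubs had no promoter partner: Rin2, Taf5l/Urb2, Zmym4, Cnn3, Hnrnpa2b1, Ctnnb1, Ext2, Fxyd2 and Lrrc1. Rin2, which encodes an exchange factor for the small GTPase Rab5, had 23 contacts, 13 of them inside Rin2, with 20 Sertoli and 8 pre-granulosa calls. Zmym4 had 13 Sertoli and 7 pre-granulosa calls and Cnn3, the gene of the actin-binding calponin 3, 15 and 7. Hnrnpa2b1, an hnRNP gene, had 15 and 6, and its strongest contact, 88.0 kb away outside coding genes, scored 20.7 and 17.3.

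By the RefSeq gene models, 1981 hub contacts (18.8%) ended inside the gene of the bait, 6634 (62.9%) in another protein-coding gene and 1927 (18.3%) outside coding genes; over all baits the shares were 20.9%, 63.7% and 15.4%. Contacts inside the own gene had a ratio of 1.37 and a median distance of 27.3 kb, and those outside coding genes 1.70 and 76.8 kb. Over all baits these were 1.32 and 20.8 kb inside the own gene and 1.40 and 53.6 kb outside coding genes. Own-gene contacts made up 50% or more in 69 hubs. The most were at Sorbs2, a gene of an actin-linked adaptor protein, with 29 of 31 contacts inside the gene and 19 Sertoli against 25 pre-granulosa calls. Contacts of a hub were often neighbours: 78.2% of contacted bins touched another contacted bin of the same hub, against 44.8% over all baits, and 40.0% lay in blocks of 5 or more bins, against 11.6%. The gap is in part built in by the selection on the number of rows, since the 2781 baits of 1 contact have no second bin to touch. The longest block, 27 bins, was at Cfap126, so that rows of a hub partly repeat 1 broad contact. Touching bins joined, the 10542 rows came to 4378 blocks.

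The larger side of a hub held a median of 68.8% of its contacts, and 24 hubs had all contacts on 1 side of the bait. Where a hub partner was itself a bait, the contact could be read from both ends. Of the 3579 promoter contacts, 3360 (93.9%) were listed from the partner too, with the same Sertoli call in 90.7% and the same pre-granulosa call in 86.0%. Since 86.8% of the promoter contacts were Sertoli calls and 64.7% pre-granulosa calls, part of this sameness follows from the shares called. Both readings came from the same libraries. The scores of the 2 readings differed by a median of 3.30 in Sertoli and 1.91 in pre-granulosa cells.

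Hubs within 200 kb of each other were joined into groups along the chromosomes. The 503 hubs formed 250 groups, of which 166 held 1 hub and 19 held 5 or more. Promoter bins lie close together in general, with a median of 9 within 200 kb over all baits and 15 for hubs. How other baits group at this distance was not counted, so the groups only describe the hubs. The largest group, 22 hubs on chr7:44748674-45787881, ran from Vrk3 to Lmtk3 over the ribosomal protein gene Rpl13a, the TEAD factor gene Tead2, and Lhb, the gene of the beta chain of luteinising hormone, which shares a bin with Ruvbl2. It had 398 Sertoli and 243 pre-granulosa calls, and 21 of its 22 hubs had more Sertoli calls, against 86.7% of all hubs. A group of 17 hubs on chr3:89956179-90609524 held 3 bins of Gatad2b, a subunit gene of the NuRD repressor complex, and bins of the S100a calcium-binding proteins, with 312 and 206 calls. A group of 12 on chr2:25203415-25705669 held Nelfb, Anapc2, Npdc1 and lipocalin genes, with 263 and 145. The 6 hubs of chr7:19049876-19703871, from Sympk through Ercc1, Nkpd1 and Gemin7 to Apoe/Tomm40, had 125 and 41 calls, a ratio of 3.05. Of 253 neighbouring pairs of hubs within 200 kb, 239 shared at least 1 contacted bin, and a pair shared a median of 60% of the contacts of the smaller hub. These hubs are therefore not separate observations.

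Some bins were contacted from many hubs. The 10542 contacts ended in 7372 different bins, of which 1793 were listed by 2 or more hubs and 351 by 4 or more. The most, 9 hubs, met at the Tmem210/Lrrc26 promoter bin (chr2:25285625-25291128), with 9 Sertoli and 5 pre-granulosa calls. On chromosome 9 the same 8 hubs, from Ccdc153 to Vps11, listed the promoter bins of Pdzd3 and of Dpagt1. The contact with Pdzd3 was called for 8 hubs in Sertoli and for 7 in pre-granulosa cells, while that with Dpagt1 was called for 8 and 1, with pre-granulosa scores of 1.63 to 8.16. Within 1 neighbourhood, then, shared and Sertoli-called bins stood side by side.

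The strongest hub contact in Sertoli cells joined the Emg1/Phb2 bin, with genes of a ribosome biogenesis enzyme and of prohibitin 2, to the Ptpn6/Grcc10 bin 27.0 kb away, with 84.1 in Sertoli and 33.2 in pre-granulosa cells. The strongest in pre-granulosa cells joined Cfap126 to Tomm40l/Apoa2 at 102.6 kb, with 54.4 and 34.5. The rows with the largest differences ended in bins with a score of 0 in 1 cell type from every bait. The 3 largest towards Sertoli cells, from Prss53/Vkorc1 (49.1 against 0), Bckdk (18.1 against 0) and Hsd3b7 (17.5 against 0), all ended in the Zfp668/Zfp646 bin (chr7:127875132-127880194). All 14 rows of any bait that ended in this bin had a pre-granulosa score of 0. Read from the other side, with Zfp668/Zfp646 as the bait, the contact with Prss53/Vkorc1 scored 34.9 in Sertoli and 33.0 in pre-granulosa cells, and that with Hsd3b7 9.75 and 15.2. The 3 largest towards pre-granulosa cells behaved alike: Zfp513 to Eif2b4/Snx17 (0 against 33.1), Gnb1 to Nadk (0 against 29.3) and Cracr2b to Slc25a22 (0 against 24.0). Every row ending in these 3 bins (15, 4 and 9 rows) had a Sertoli score of 0, and read from the other side the Sertoli scores were 29.0, 25.02 and 26.4. Scores of 0 occurred in 197 hub rows for pre-granulosa and in 41 for Sertoli cells, and the pattern of these 6 rows was rare among the former and common among the latter. Of the 197, 9 ended in bins of 2 or more rows that were at 0 in every row, and of the 41, 19 did. Where the reverse row was listed, 22 of 34 pre-granulosa readings were 0 as well (median 0, 4 called), and 4 of 21 Sertoli readings (median 9.06, 14 called). Without them the ratio of calls was 1.54.

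Few hubs carried a gene that marks the supporting cells. Hub bins carried transcripts of 552 genes, of 8390 in all, with 1 gene at 411 hubs and 2 at 89. Of 10 bins with a Sertoli gene from the list used, none was a hub. Ptgds, the prostaglandin D synthase gene of Sertoli cells, came nearest with 14 contacts, 13 called in Sertoli and 5 in pre-granulosa cells. The Ptgds bin was reached by 2 hubs: Npdc1, with scores of 5.31 and 5.26, and Lcn12, with 8.54 and 4.32. Of 20 bins with a pre-granulosa gene, 1 was a hub, a bin of Ctnnb1, the gene of the WNT effector beta-catenin. Its 16 contacts all lay to the left of the bin at a median of 136.2 kb and none ended in a promoter bin. Sertoli cells called 12 of them, pre-granulosa cells 6 and both cell types 2. The strongest scored 12.1 in Sertoli and 3.83 in pre-granulosa cells at 32.3 kb, and one at 10.6 kb scored 10.3 and 10.2. Of 9 bins with a gene of both lineages, such as Wt1, Nr5a1 and Lhx9, none was a hub. With 4.55% of all baits being hubs, lists of this size would hold 1 hub or none at the background share.

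Broader gene groups, chosen by name patterns, held hubs at shares from 0.203% in olfactory and vomeronasal receptor genes to 8.33% in genes of ribosomal and mitochondrial proteins, around the background of 4.55%. Among all hubs, 436 of 503 (86.7%) had more Sertoli calls, and 332 of 503 with equal numbers of calls over all baits, so a group in which every hub had more Sertoli calls is near the background. Genes of ribosomal and mitochondrial proteins had 11 hubs among 132 bins (8.33%), with 234 Sertoli and 166 pre-granulosa calls, among them Ndufs3, a subunit gene of respiratory complex I, with 33 and 23. Cell cycle and repair genes had 11 of 171 (6.43%), led by Anapc2, a subunit gene of the anaphase-promoting complex, with 29 and 23 calls; the group was matched by name alone and includes the kinase genes Cdc42bpa, Cdk15 and Cdk5, the last known mainly from neurons, and the kinesin gene Kifc3. Splicing and translation genes had 10 of 161 (6.21%) and solute carriers 12 of 206 (5.83%), 12 of 12 with more Sertoli calls against 86.7% of all hubs (10 of 12 with equal numbers of calls over all baits), such as Slc25a25 with 25 and 19. Genes matched as developmental transcription factors had 8 of 153 (5.23%), but 5 of these bins carry Gatad2b, Gatad2a or the isocitrate dehydrogenase gene Idh1, which are no such factors. The rest were Pou2f1 (17 and 10 calls), Tead2 (17 and 6) and Tcf12 (10 and 10). Chromatin regulators had 6 of 135 (4.44%), 6 of 6 with more Sertoli calls against 86.7% of all hubs (5 with equal numbers of calls over all baits): Smarcc1, Ino80e, Tet3, Setd2, Rere and Pcgf1. Ubiquitin genes had 8 of 209 (3.83%), 8 of 8 with more Sertoli calls against 86.7% of all hubs (7 with equal numbers), and trafficking genes 8 of 237 (3.38%). Zinc finger Zfp and Zbtb genes had 10 of 286 (3.497%), with 161 Sertoli and 138 pre-granulosa calls. Of these, 4 of the 10, Zfp324, Zfp513, Zfp568 and Zfp956, had more pre-granulosa calls, against 50 of all 503 hubs (9.94%). With equal numbers of calls over all baits the Zfp group turned, with 127 Sertoli and 138 pre-granulosa calls. At that setting 5 of the 10 had more pre-granulosa calls, against 130 of all 503 hubs. Gm and Rik gene models had 14 of 402 (3.48%). Olfactory and vomeronasal receptor genes had the lowest share, 2 hubs among 987 bins, Olfr554 with 19 and 7 calls and Olfr878 with 9 and 10.

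**Figure D5:**
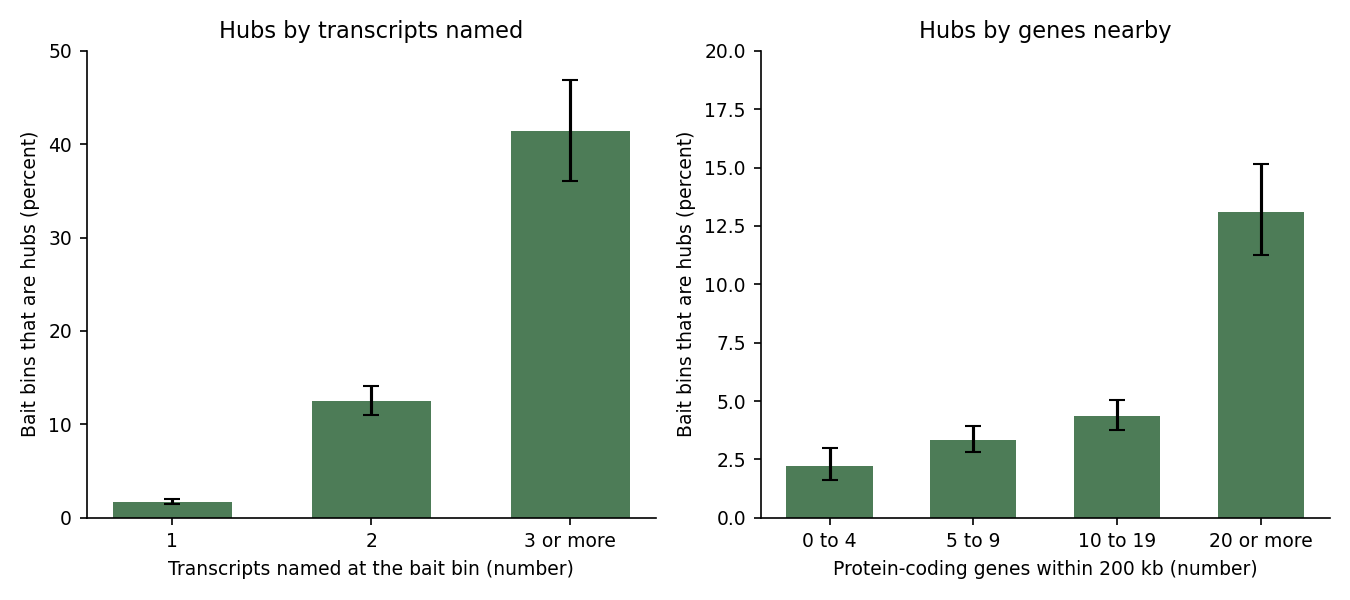
Share of baits that are hubs (percent, y axis, 95% Wilson intervals) by the number of transcripts named at the bait bin (left) and by the number of protein-coding genes within 200 kb (right). The share climbs from 1.74% at 1 transcript to 41.4% at 3 or more, and from 2.21% with 0 to 4 genes nearby to 13.1% with 20 or more.

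Being a hub went along with how many transcripts a bin carried. Hubs were 157 of 9015 bins with 1 transcript name (1.74%, 1.49–2.03), 216 of 1734 with 2 (12.5%, 11.0–14.1) and 130 of 314 with 3 or more (41.4%, 36.1–46.9). In the deposited table of the original baits, a hub bin held a mean of 1.73 baits with listed contacts and a bin of under 15 contacts 0.611. No hub bin, but 42.98% of the bins of under 15 contacts, held none. A bait is listed there only where it has a contact, so this number is not independent of the number of contacts; the part of the capture in the number of contacts was not tested. Among the 157 hubs with 1 name, the ratio of calls was 1.71, 37.4% of contacts were called in both cell types, 33.2% of partners were promoter bins and the median distance was 59.3 kb. In bins of 1 name, baits of under 15 contacts had 64.5% promoter partners and a median of 45.1 kb. These bins too were split by the number of contacts, so the contrast carries the same selection. Hubs lay in gene-rich regions, with a median of 14 protein-coding genes within 200 kb against 9 for baits of under 15 contacts. Baits just outside the selection were similar, with medians of 13 genes at 14 contacts and 12 at 10 to 14. Hubs made up 2.21% of bins with 0 to 4 such genes and 13.1% of bins with 20 or more. In bins of 1 name the shares were 0.958% and 5.09%. Bin length was alike, with medians of 5351 and 5321.5 bases. Chromosome 7 held 111 hubs (22.1% of hubs, 17.5% of baits), and hubs were 5.96% of the baits of chromosome 9 and 2.24% of those of chromosome 4.

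The second deposited table is named for original baits, and the first, used above, for extended baits; how baits were extended is not given in the sources used here. The 503 hubs held 871 original baits with 7446 contacts, 6451 called in Sertoli and 3128 in pre-granulosa cells; the call ratio was 2.06 against 1.93 over all original baits. Of the 436 hubs with more Sertoli calls, 409 also had more there. Of the 50 with more pre-granulosa calls, 17 did and 24 had more Sertoli calls. The hubs with the largest pre-granulosa excess were among the 17. Cav1 had 2 Sertoli and 5 pre-granulosa calls, Ccdc73 7 and 14 and Atp6v1f 4 and 8. At Cep41, with 8 and 9, and at Ing4, with 4 and 5, the lead was narrow. Gemin7 had 20 and 2, and Nkpd1 24 and 6. Other named hubs changed sides: Zmym4, with more Sertoli calls in the extended table, had 12 Sertoli and 13 pre-granulosa calls. Tomm40l/Apoa2, Prdx1 and Lmtk3, each with 1 more pre-granulosa call in the extended table, had 20 and 13, 23 and 12, and 23 and 17. The tables share libraries, so this is another reading of the same cells and not a replicate.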

How the data were processed

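Capture Hi-C of 3 Sertoli and 2 pre-granulosa libraries was deposited as tables of scores, per the labels. The deposited values are CHiCAGO scores, by the names the authors gave the tables, with 1 score for each cell type and row; how libraries were combined, tool versions and read filters are not given in the sources used here. The build is mm10, per the submitters' processing notes. Distances in base pairs are another deposited column and equal the difference of the bin midpoints, which was checked on all 50644 rows. The labels assign libraries to the columns of the original-bait table, and the columns of the extended-bait table, the main table here, were read alike by name. Rows to the same chromosome on chromosomes 1 to 9 were kept and hubs were baits with 15 or more of them. A score of 5 or more counted as a call. Intervals are Wilson's for shares and order-statistic intervals for medians, at 95%. No test was run, since the scores have no replicates. The members, gene lists and name patterns were chosen with earlier results of these data known. Hubs named in the text are the 10 with most contacts, the 5 with most Sertoli over pre-granulosa calls, the 5 with the reverse, the 5 with the largest share called in both, the 5 with the farthest median and the 5 with the largest share of non-promoter partners, hubs of listed supporting-cell genes, the rows with the highest scores and largest differences on the asinh scale, and up to 4 hubs of each gene group by number of contacts; hubs outside this rule were named after their values were seen. A hub that the rule names is not reported here. Genes and promoters were matched to RefSeq tables on GRCm38.p6, the same build. The scripts were tested on simulated data and ran in Python 3.11.15 with pandas 2.3.3, numpy 2.4.6, scipy 1.17.1 and matplotlib 3.10.9. Effects of 10 alternatives, and of 2 added after seeing the data, are given in the closing part.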

Additional observations from a re-analysis of the deposited data

Results flagged for a closer look

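Rows that join chromosomes were not part of the comparisons. Hub baits had 10 of them, 8 being pre-granulosa calls and 2 Sertoli calls, each with a score of 0 in the other cell type. Over the whole table, 231 of 253 such rows (91.3%) were pre-granulosa calls and 27 Sertoli calls, so the excess of pre-granulosa calls was not particular to hubs. Nexn, the gene of a muscle actin-binding protein, supplied 4 of the 8, with pre-granulosa scores up to 12.1, and the highest score was 15.9 at Rbbp5.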

How the results depend on the processing

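No paired analysis was possible because the tables hold 1 score for each cell type and no value for a library. Leaving out a library was not possible for the same reason. Under the 10 other settings and the 2 chosen after seeing the data, the ratio of calls stayed above 1 and more hubs had a Sertoli than a pre-granulosa excess. The majority of non-promoter partners did not hold with touching bins merged, where a block with any promoter bin counts as a promoter partner. The ratio of 1.56 became 1.70 at a score of 7, 1.85 at 10, 1.65 at 20 kb or more, 1.22 with equal numbers of calls over all baits, 1.39 with touching bins merged, 2.06 in the original baits and 1.71 in hubs of 1 transcript name. The share called in both, 42.3%, became 37.4%, 34.3%, 37.95%, 44.1%, 50.05%, 28.6% and 37.4% in the same order, 39.2% for hubs of at least 10 rows, 44.5% for at least 20 and 43.3% without scores of 0. The promoter share, 33.9%, became 38.2%, 43.3%, 34.9%, 35.7% and 52.7% over the first 5 of these, 0.0940% in the original baits, 38.2% and 31.6% for hubs of at least 10 and 20 rows, 31.4% with promoter pairs counted a single time and 31.2% without chromosome 7. The median distance, 60.6 kb, became 53.9, 47.2, 73.0, 58.8 and 69.8 kb over the first 5, 52.2 kb in the original baits, 55.2 and 66.1 kb at 10 and 20 rows, 59.3 kb with 1 transcript name and 59.5 kb without scores of 0. The 436 hubs with a Sertoli excess became 1007 and 215 at 10 and 20 rows and 140 with 1 name, where fewer or more baits count as hubs. The 50 with a pre-granulosa excess became 172 and 17 at 10 and 20 rows, 11 with 1 name, 130 with equal numbers of calls and 76 with bins merged. In the original table few partners carry a transcript name. Unknown depth limits every comparison of calls between the cell types.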
